A study of Xenopus tropicalis with 12 samples.

Results

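The genes described here are 150 genes of Xenopus tropicalis whose transcripts were more abundant in animal caps that received human PHF8 mRNA than in animal caps that received LacZ mRNA. They were chosen by those measured values. Counts were scaled to a total of 1000000 counts over genes in each library (CPM). Of 34177 gene IDs, 10243 had a mean of at least 5 CPM over hPhf8 replicates 1 and 3 and the 3 LacZ libraries. These were ranked by the log2 ratio of the lower hPhf8 value to the highest LacZ value, with 0.5 CPM added to each, and the highest 150 were kept. The question asked of them was whether embryos that also received morpholinos against SUV4-20H1 and SUV4-20H2 reversed, kept or extended the rise.

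Animal caps are explants of prospective ectoderm that form a mucociliary epidermis in culture. Each library came from a pool of explants of radially injected embryos at stage NF16, with 3 libraries in each of 4 groups. CoMo embryos carried a standard control morpholino, LacZ embryos carried mRNA of bacterial beta-galactosidase, hPhf8 embryos carried mRNA of human PHF8, and hRescue embryos carried this PHF8 mRNA plus the SUV4-20H1 and SUV4-20H2 morpholinos. All explants were thus injected, and neither CoMo nor LacZ alone controls for both mRNA and morpholino. hRescue was compared with CoMo because neither of these groups entered the choice of the genes.

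PHF8 is a Jumonji-domain demethylase that removes H4K20me1 and H3K9 methylation and is known mainly as a coactivator at active promoters. SUV4-20H1 and SUV4-20H2 turn H4K20me1 into the di- and trimethyl forms, of which the trimethyl form is associated with heterochromatin. In this epidermis, multiciliated cells, ionocytes, goblet cells and small secretory cells differentiate among the basal and outer layer cells.

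The files count frog genes by running ID, so the injected human mRNA was not measured, and the morpholinos block translation, so the RNA of their targets does not check them. The libraries held 2204210 (hPhf8 replicate 2) to 35584520 (LacZ replicate 2) counts over genes, and every library other than hPhf8 replicate 2 held at least 5258667. In hPhf8 replicate 2 only 8.87% of read pairs were counted on genes, 3 counts corresponded to 1.36 CPM, and 11 of the 150 genes had no count. Its share of unmapped read pairs was 31.1%, beside 6.75% to 10.6% in the other libraries. Its multimapping share was 36.0%, beside 6.62% to 12.3%, and its antisense share was 23.5%, beside 2.34% to 4.15%. Features without a gene ID took 16.6% to 31.6% of feature counts in the controls and 53.9% to 60.9% in hRescue, and they were left out. Of 12 epidermal genes tested, 2 were called higher in hRescue than in CoMo, 4 lower and 6 not called. cdh1, an epithelial cadherin that was not called, lay between 1135 and 1495 CPM in all libraries. tp63, a basal epidermal transcription factor, was called lower. It lay between 740 and 1469 CPM in CoMo, LacZ and hPhf8 and between 60.6 and 141 CPM in hRescue. The other calls were krt12, tfap2a and cldn1, all lower, and krt16 and elf3, both higher. In hRescue 20 of 21 tested multiciliated cell markers, 12 of 14 ionocyte markers and 3 of 4 goblet and small secretory cell markers were called lower than in CoMo. Called higher were 28 of 35 immediate early genes, 12 of 15 chaperone and stress genes and 3 of 4 endoderm genes. The endoderm genes summed to 4.60 to 23.0 CPM in CoMo and 120 to 329 CPM in hRescue. Of 3 neural genes 1 was called higher and 1 lower. Over all genes tested 14.7% were called higher and 18.7% lower. Gene names came from the study's own comparisons, sorted by p-values, so listed genes that changed were more likely to be found. The lists held 41 immediate early, 23 chaperone and stress, 8 endoderm, 14 neural and 28 multiciliated cell symbols. The gene IDs found for them numbered 35, 16, 4, 4 and 21. These shares are therefore not directly comparable with all genes tested. In bulk samples of this kind fewer cells of a type and less RNA per cell cannot be told apart.

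The rise that chose the genes was moderate. The mean over hPhf8 replicates 1 and 3 was 1.57 to 10.6 times the LacZ mean, with a median of 2.06, and exceeded 2-fold for 90 genes. Most of the genes were weakly expressed, with a median of 11.2 CPM over the 5 libraries of the rule beside 32.5 CPM for all 10243 genes. The ranking value ran from 1.84 for gene5415 to 0.58 for tipin, a replication fork protein, and passed 1 for 11 genes. The first gene beyond the limit, gene27103, also had a ranking value of 0.58, so the boundary is not a gap. Of all 10243 genes, 2612 (25.5%) were higher in both hPhf8 libraries than in every LacZ library. Over the whole table edgeR called 0 of 16845 genes (0.0%) between the 3 hPhf8 and the 3 LacZ libraries, with 1026 at an unadjusted p under 0.05, and DESeq2 called 64 (0.38%), 29 higher (0.172%) and 35 lower (0.208%), of which 17 higher genes were among the 150. Because the rule used this contrast, nothing is read from these counts.

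A gene name was listed for 105 of the 150 IDs in the supplementary tables of the study, and 88 of these names were gene symbols. The remaining 45 IDs are given by number only. These tables are held here in shortened form and were sorted by the p-values of the study's own comparisons, so genes that changed were more likely to have a name. The RefSeq gene table of the UCB_Xtro_10.0 assembly listed 97 of the names.

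The gene at the top of the ranking showed how much the replicates could differ. gene5415 measured 23.8, 0.0562 and 30.1 CPM in LacZ replicates 1 to 3, 16.9, 0 and 20.5 CPM in CoMo, 270 and 109 CPM in hPhf8 replicates 1 and 3, and 0.454 CPM in hPhf8 replicate 2. It measured 50.5, 0.188 and 68.1 CPM in hRescue. Replicate 2 was near 0 in all 4 groups, and the hRescue libraries overlapped the CoMo libraries. The log2 fold change of gene5415 between hRescue and CoMo was 1.36 ± 1.32 (SE, adjusted p 0.466), and with the replicate number as a block, which compares same-numbered libraries, it was 1.36 with an adjusted p of 0.00311.

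Among the genes with symbols, tbx1 (gene2677, chromosome 1 of the v9.1 genome), a T-box transcription factor of pharyngeal and heart development, had the highest ranking value. Its level was 3.51, 4.41 and 2.92 CPM in LacZ, 2.65, 4.67 and 2.10 CPM in CoMo, and 14.6 and 22.3 CPM in hPhf8 replicates 1 and 3. No tbx1 count was found in hPhf8 replicate 2, which limits its level there to 1.36 CPM at 3 counts. The 2 deeper hPhf8 libraries thus lay above all controls and the shallow one did not.

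slc27a4 (gene30811, chromosome 8), a fatty acid transporter with acyl-CoA synthetase activity, was the most abundant of the 10 highest ranked genes with symbols. It stood at 84.5, 80.6 and 77.0 CPM in LacZ and at 175, 176 and 177 CPM in hPhf8 replicates 1 to 3, so here replicate 2 matched the other hPhf8 libraries. In CoMo it stood at 80.6, 150 and 71.1 CPM, with replicate 2 close to the hPhf8 level. elavl2 (gene2174, chromosome 1), an RNA-binding protein of the neuronal Hu family, showed the same order, with 8.97, 8.51 and 9.40 CPM in LacZ, 21.6, 19.1 and 20.1 CPM in hPhf8, and 10.2, 15.7 and 10.1 CPM in CoMo.

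hsf4 (gene7355, chromosome 4), a heat shock transcription factor known from the lens, was the only one of the 150 genes that appeared in any of the 12 lists of epidermal, other cell type, stress and cell cycle genes read here. It had 9.27, 4.44 and 11.6 CPM in LacZ, 23.2, 16.8 and 22.7 CPM in hPhf8, and 5.24, 11.1 and 5.67 CPM in CoMo. All 3 hPhf8 libraries were above every control library for hsf4. The other genes among the 10 highest ranked symbols were tbc1d8, a member of the Rab GTPase-activating protein family, lppr3 (plppr3 in RefSeq), mybpc3, a cardiac myosin-binding protein, grb7, an SH2 adaptor of receptor tyrosine kinases, tfb1m, which methylates the small mitochondrial ribosomal RNA, and tmem140. Their folds over LacZ ranged from 2.11 for grb7 to 3.06 for tmem140.

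**Figure D1:**
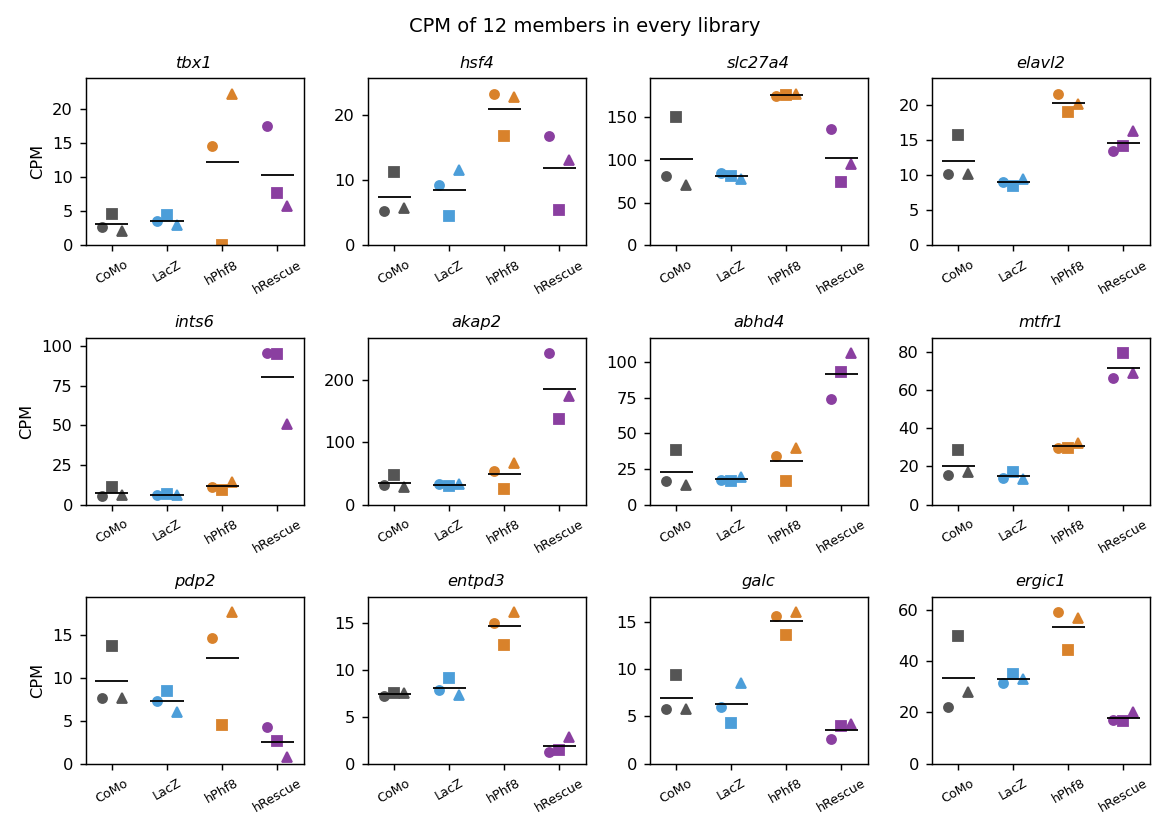
CPM of 12 of the 150 genes in every library (y axis, linear, from 0), by group, where circles, squares and triangles are replicates 1, 2 and 3 and the line is the group mean. The square of CoMo lies above the other CoMo symbols in all panels except that of entpd3, and the hRescue symbols lie far above CoMo for ints6, akap2, abhd4 and mtfr1 and below CoMo for pdp2, entpd3, galc and ergic1.

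Whether the genes also stood above CoMo was then examined as a description, since the hPhf8 libraries had already been used. In both hPhf8 replicates 1 and 3, 99 of the 150 genes were above every CoMo library, beside 11.5% of all 10243 genes. When CoMo replicate 2 was left out, a choice made after its values were seen, 146 genes were above the remaining CoMo libraries, beside 33.3% of all genes. For 47 of the 51 genes without a rise against CoMo, CoMo replicate 2 was the only CoMo library that reached the lower hPhf8 value.

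The library labelled CoMo replicate 2 thus stood apart for these genes. By its label it had received no PHF8 mRNA, and whether samples had been exchanged or mixed was not tested, which bears on each comparison with CoMo. It was above every LacZ library for 143 of the 150 genes, beside 48.0% of all genes, whereas CoMo replicate 1 was so for 59 genes (28.6% of all genes) and CoMo replicate 3 for 45 (27.8% of all genes). It was the highest CoMo library for 137 of the 150 genes, beside 52.5% of all genes. The median log2 ratio to the LacZ mean was 0.77 in CoMo replicate 2, 0.08 and -0.08 in CoMo replicates 1 and 3, and 0.95 and 0.99 in hPhf8 replicates 1 and 3.

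The same gene examples carry this pattern. mybpc3 measured 27.9 CPM in CoMo replicate 2 and 9.25 and 7.96 CPM in CoMo replicates 1 and 3, beside 25.5, 25.9 and 22.3 CPM in hPhf8 and 10.6, 8.99 and 10.7 CPM in LacZ. gene28610, the second gene of the ranking, measured 28.2 CPM in CoMo replicate 2 and 3.95 and 2.29 CPM in CoMo replicates 1 and 3, beside 26.0, 14.5 and 28.9 CPM in hPhf8. In both cases 1 control library was as high as the hPhf8 libraries.

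The relation was not limited to the 150 genes. Over all 10243 genes, the difference between hPhf8 replicates 1 and 3 and LacZ was correlated with the difference between CoMo replicate 2 and CoMo replicates 1 and 3 (Pearson 0.49, Spearman 0.52), and these differences share no library. The points are genes measured in the same 8 libraries, so the correlation is a description. The median log2 difference of CoMo replicate 2 from CoMo replicates 1 and 3 was 0.79 for the 150 genes and 0.14 for all genes. Within the 150 genes, whose hPhf8 and LacZ values were used to choose them, the Pearson value was -0.35 and the Spearman value 0.38. gene5415 had the largest difference between hPhf8 and LacZ, 3.36, with a difference of -5.27 for CoMo replicate 2. Values without this gene are not given, and no relation within the 150 genes is read from the opposite signs.

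**Figure D2:**
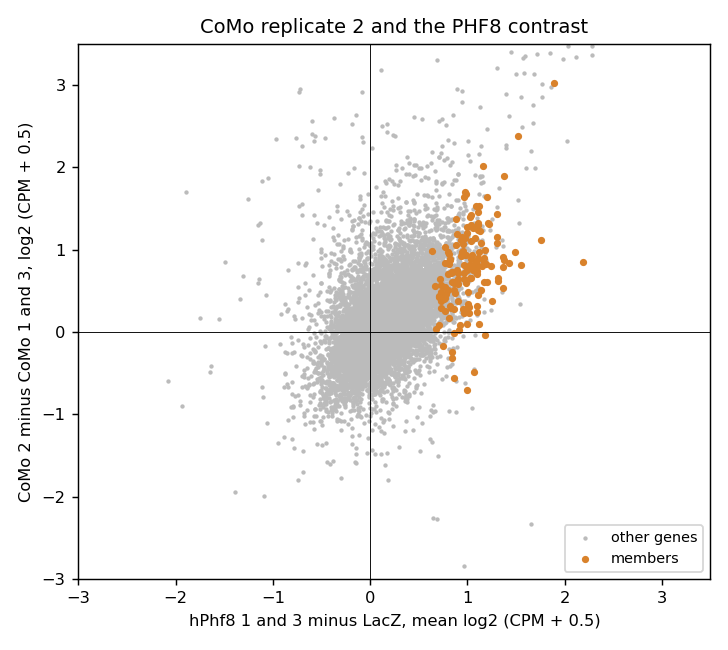
Each point is 1 of 10243 genes, with the log2 difference between hPhf8 replicates 1 and 3 and LacZ on the x axis and the log2 difference between CoMo replicate 2 and CoMo replicates 1 and 3 on the y axis, both on log2 (CPM + 0.5). The 150 genes (orange) lie to the right by choice and mostly above 0 on the y axis, with a median of 0.79, and 15 genes, 1 of them among the 150, fall outside the plotted range.

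The mapping of CoMo replicate 2 was close to that of the other controls. Its share of read pairs on genes was 42.9% and its antisense share was 2.39%, within 40.5% to 45.9% and 2.34% to 2.88% for the other CoMo and LacZ libraries. Its share of unmapped read pairs was 9.34%, above the 7.72% to 8.58% of these libraries while hPhf8 replicates 1 and 3, both high for these genes, had 10.3% and 6.75%. The part of the unmapped share in the levels of the 150 genes was not tested.

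hPhf8 replicate 2 was not used to choose the genes, and it showed the rise for only some of them. It was above every LacZ library for 81 of the 150 genes, beside 30.2% of all genes, and below every LacZ library for 51 genes, beside 44.6% of all genes. The rule used the highest LacZ value, so these positions are no independent check of the rise. CoMo replicates 1, 2 and 3 were above every LacZ library for 59, 143 and 45 genes, beside 28.6%, 48.0% and 27.8% of all genes. hPhf8 replicate 2 was above every CoMo library for 50 genes, beside 23.8% of all genes. Among the 88 genes with a symbol it was above every LacZ library for 59, and among the 62 without for 22. bag4, an antiapoptotic co-chaperone, reached 217 CPM in hPhf8 replicate 2 against 53.02 and 65.3 CPM in hPhf8 replicates 1 and 3, which shows the spread of this library in the other direction.

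**Figure D3:**
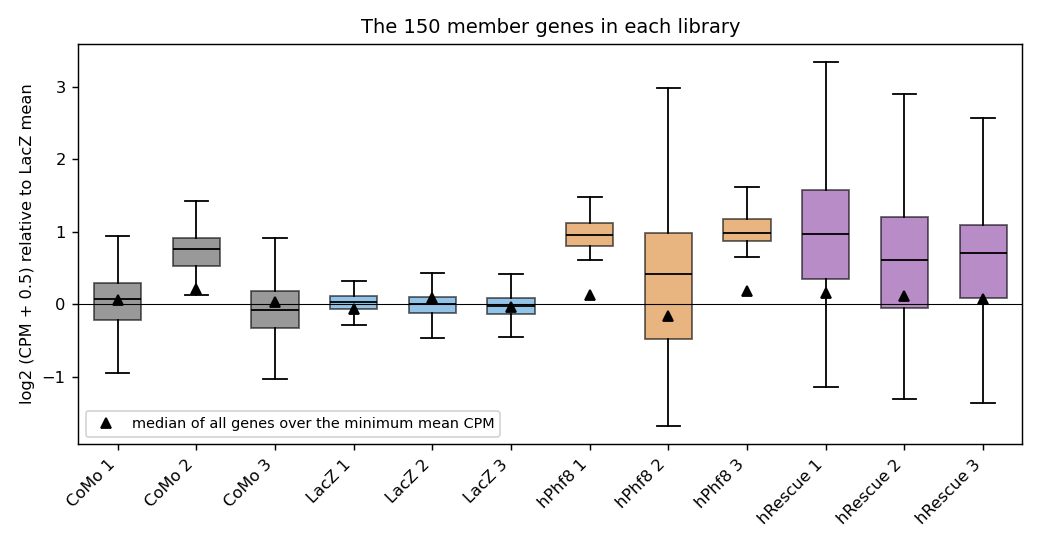
Levels of the 150 genes in each of the 12 libraries, as log2 of CPM + 0.5 relative to the LacZ mean (y axis). Boxes show the quartiles and the median, whiskers reach at most 1.5 times the interquartile range and genes beyond are not drawn, and triangles show the median of all 10243 genes. The median of CoMo replicate 2, 0.77, is close to those of the hRescue libraries, 0.60 to 0.97, and the boxes of hPhf8 replicate 2 and hRescue are wide.

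The 2 control groups also differed from each other for part of the genes. In 39 of the 150 genes CoMo replicates 1 and 3 were above every LacZ library, beside 16.5% of all genes. nusap1, a spindle protein, had 18.5, 23.4 and 22.6 CPM in LacZ and 46.8, 34.9 and 51.7 CPM in CoMo, beside 38.9 and 52.9 CPM in hPhf8 replicates 1 and 3. hmmr, another spindle protein, had 23.7, 20.7 and 16.8 CPM in LacZ and 39.7, 38.3 and 38.7 CPM in CoMo, beside 39.1 and 55.2 CPM in hPhf8. For both genes the lower hPhf8 value lay within the range of CoMo, and because the rule used the LacZ libraries this is no test of CoMo against LacZ.

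The test that is independent of the choice compared hRescue with CoMo by edgeR's quasi-likelihood test over 17099 genes. Of the 150 genes, all of which were tested, 35 were higher in hRescue (23.3%) and 14 were lower (9.33%) at an adjusted p under 0.05. Over all genes tested 14.7% were called higher and 18.7% lower, 33.4% in all, and over the genes that passed the minimum of 5 CPM 12.3% were called higher and 28.6% lower, 40.9% in all. The total of 49 called genes (32.7%) was near the share of all genes tested and below that of genes over the minimum. The split of the calls leaned to higher values in the list and to lower values over all genes. The 150 genes were weakly expressed (median 11.2 CPM, beside 32.5 CPM for all 10243 genes). Shares called for genes of like level were not counted, and the part of expression level in the split was not tested. With library sizes alone in place of TMM factors the split was 41 higher and 9 lower in the list and 3288 higher and 2308 lower over all genes, so that the direction of the split over all genes turned and that in the list did not.

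The median log2 fold change of the 150 genes between hRescue and CoMo was 0.33, beside -0.02 for all genes tested and -0.22 for those over the minimum. It was 0.22 without CoMo replicate 1, 0.56 without CoMo replicate 2, 0.19 without CoMo replicate 3 and 0.21 without hRescue replicate 1. The values were positive for 90 of the 150 genes (60.0%), beside 49.4% of all genes tested. The 150 genes that the mirrored rule put lower in hPhf8 than in LacZ had a median of -0.60, with 8 called higher (5.33%) and 69 called lower (46.0%), in all 77 (51.3%). This is a description of both lists. The groups did not overlap in CPM for all 35 genes called higher and for 11 of the 14 called lower. The change was at least 2-fold for 24 of the 35 and 12 of the 14. Lack of overlap was common, since every hRescue library was above every CoMo library for 25.8% of all 10243 genes and below for 28.1%. Shares among all called genes are not given, so these counts are not read as a trait of the list. Beside these results, the summed level of 21 multiciliated cell markers was 4361 to 7328 CPM in CoMo and 1790 to 2574 CPM in hRescue, that of 14 ionocyte markers was 1245 to 1489 CPM and 453 to 778 CPM, and that of 35 immediate early genes was 2340 to 3136 CPM and 7219 to 10904 CPM. No defining marker of multiciliated cells or ionocytes was at 0 in any library, and the part of cell composition and of the stress response in the 49 calls was not tested.

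Reversal, maintenance and extension were read from the 99 genes with a rise against CoMo. A gene was taken as reversed when every hRescue library was below every CoMo library, as extended when every hRescue library was above both hPhf8 replicates 1 and 3, and as kept when every hRescue library was above every CoMo library without being extended. By these positions 12 genes were reversed, 14 kept and 14 extended, and the remaining 59 were mixed. The positions used plain CPM, while the TMM factors were 1.06 to 1.17 in hRescue and 0.92, 1.09 and 0.94 in CoMo. Plain CPM thus placed hRescue higher relative to CoMo replicates 1 and 3 than TMM-scaled CPM would. With TMM-scaled CPM 111 genes had a rise, of which 18 were reversed, 15 kept, 17 extended and 61 mixed. Of the reversed genes 11 were called lower in hRescue, of the kept genes 5 were called higher, and of the extended genes 13 were called higher. The mixed genes held 2 called lower. The 51 genes without a rise against CoMo held 17 called higher and 1 called lower. Classes and calls used the same CoMo and hRescue libraries. For reversed, kept and extended genes the direction of a call was therefore largely fixed by the class, and the calls are no separate support for it. Over the 150 genes every hRescue library was below every CoMo library for 12, beside 28.1% of all genes, above every CoMo library for 47, beside 25.8%, and above both hPhf8 libraries for 33, beside 29.5%. Every hRescue library was above CoMo replicates 1 and 3 for 95 genes, beside 36.1%. Every hRescue library was above every LacZ library for 91 genes, beside 34.0%, but the LacZ and hPhf8 values were used by the rule and nothing is read from the positions relative to them.

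The position of hRescue relative to hPhf8 is given as a description, because the rule chose genes for high values in hPhf8 replicates 1 and 3. In 51 of the 99 genes every hRescue library was below both hPhf8 libraries, 39 of them among the mixed genes, and in 10 of the mixed genes every hRescue library fell within the CoMo range. Over all 150 genes every hRescue library was below both hPhf8 libraries for 62, beside 34.8% of all genes. The classes depended on CoMo replicate 2, because without it 146 genes had a rise, of which 12 were reversed, 62 kept, 32 extended and 40 mixed. The edgeR calls without CoMo replicate 2 were 52 higher and 11 lower among the 150 genes, and 2699 higher and 3416 lower over the 17356 genes tested in that fit.

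**Figure D4:**
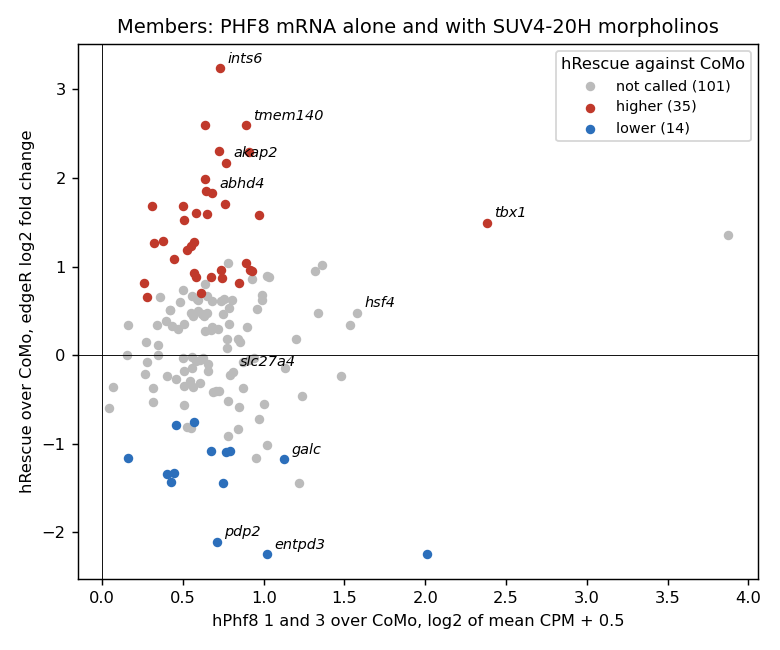
Each point is 1 of the 150 genes, with the log2 ratio of hPhf8 replicates 1 and 3 to CoMo (mean CPM + 0.5) on the x axis and edgeR's log2 fold change of hRescue over CoMo on the y axis. Both axes use the same CoMo libraries, and the 35 genes called higher (red) and the 14 called lower (blue) are found at small as well as large x values.

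The genes of the top of the ranking were mostly not called between hRescue and CoMo, with tbx1 and tmem140 as the exceptions among the 10 highest ranked symbols. tbx1 measured 17.5, 7.71 and 5.70 CPM in hRescue, all above the highest CoMo value of 4.67 CPM, with a log2 fold change of 1.496 ± 0.44 (SE) and an adjusted p of 0.0248. The tbx1 call was lost in 4 alternatives, for example without hRescue replicate 1 (log2 fold change 0.93, adjusted p 0.137).

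slc27a4 lay within the CoMo range in hRescue, with 136, 74.5 and 95.1 CPM and a log2 fold change of -0.18 ± 0.26 (SE, adjusted p 0.623) against CoMo. elavl2 had 13.4, 14.1 and 16.4 CPM in hRescue, between CoMo replicates 1 and 3 and the hPhf8 libraries, with a log2 fold change of 0.08 ± 0.24 (adjusted p 0.837). hsf4 had 16.8, 5.45 and 13.1 CPM in hRescue, with a log2 fold change of 0.48 ± 0.40 (adjusted p 0.393). None of these 3 genes was called, and their hRescue values overlapped those of CoMo.

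The largest rises in hRescue among genes with symbols were those of ints6, tmem140, kiaa0930 and sertad1. None of these genes had a rise against every CoMo library in hPhf8 replicates 1 and 3, so none was classed as kept or extended. ints6 (gene23177, chromosome 2), a subunit of the Integrator complex that terminates and processes transcripts of RNA polymerase II, had 5.13, 11.03 and 6.01 CPM in CoMo, 10.8, 9.07 and 14.3 CPM in hPhf8, and 95.9, 95.0 and 50.8 CPM in hRescue. All hRescue libraries lay far above all others, and the log2 fold change was 3.24 ± 0.31 (SE, adjusted p 0.000139). tmem140 (gene6959), a transmembrane protein, had 1.89, 12.9 and 2.29 CPM in CoMo, 10.4, 7.26 and 11.6 CPM in hPhf8, and 40.8, 29.9 and 43.4 CPM in hRescue, with a log2 fold change of 2.60 ± 0.58 (adjusted p 0.00714). For tmem140, CoMo replicate 2 lay above all hPhf8 libraries, and the hRescue libraries still exceeded it.

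sertad1 (gene18724, chromosome 8), a transcriptional coregulator that binds CDK4, had 5.95, 19.5 and 5.82 CPM in CoMo and 71.3, 72.4 and 30.4 CPM in hRescue, with 21.2, 24.5 and 18.8 CPM in hPhf8. Its log2 fold change was 2.30 ± 0.45 (adjusted p 0.00354). akap2 (gene29687, chromosome 1, palm2 in RefSeq) had 30.8, 48.1 and 27.5 CPM in CoMo, 54.0, 24.5 and 67.1 CPM in hPhf8, and 244, 138 and 175 CPM in hRescue. It was among the extended genes, at a log2 fold change of 2.17 ± 0.23 (adjusted p 0.000207).

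A further group of large rises included a regulator of cell death and proteins of membranes and lipids. pidd1 (gene17692, chromosome 4), the scaffold of the caspase-2 complex, had 11.8, 22.3 and 6.87 CPM in CoMo and 71.5, 40.1 and 39.6 CPM in hRescue (log2 fold change 1.68 ± 0.36, adjusted p 0.00554). abhd4 (gene17386, chromosome 1), a lipase of N-acyl phospholipids, had 16.7, 38.0 and 13.7 CPM in CoMo and 74.3, 93.1 and 106 CPM in hRescue (log2 fold change 1.82 ± 0.32, adjusted p 0.00199). xkr9, of the family of phospholipid scramblases, mpv17l, a membrane protein of the Mpv17 family, and the uncharacterised kiaa0930 rose by log2 fold changes of 1.58, 1.53 and 2.31 (adjusted p 0.00428, 0.00115 and 0.000419). In each of these genes the hRescue libraries did not overlap CoMo. xkr9 and mpv17l were among the extended genes, while pidd1, abhd4 and kiaa0930 had no rise against CoMo.

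In the opposite direction, 6 genes with symbols had hRescue libraries that were all below CoMo. entpd3 (gene7320, chromosome 6), a cell surface nucleotidase, had 7.25, 7.55 and 7.58 CPM in CoMo, 7.92, 9.11 and 7.31 CPM in LacZ, 15.1, 12.7 and 16.2 CPM in hPhf8, and 1.21, 1.504 and 2.85 CPM in hRescue. Its controls agreed closely, all 3 hPhf8 libraries were above them, and all 3 hRescue libraries were below them, with a log2 fold change against CoMo of -2.25 ± 0.41 (SE, adjusted p 0.00246). pdp2 (gene5378, chromosome 4), a phosphatase that activates pyruvate dehydrogenase, had 7.72, 13.8 and 7.63 CPM in CoMo, 14.7, 4.54 and 17.7 CPM in hPhf8, and 4.30, 2.63 and 0.761 CPM in hRescue. The log2 fold change of pdp2 was -2.11 ± 0.48 (adjusted p 0.00738), and hPhf8 replicate 2 did not share its rise.

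cmtr2 (gene18736, chromosome 4), which methylates the second nucleotide of the mRNA cap, had 13.9, 14.8 and 14.0 CPM in CoMo and 8.60, 5.08 and 6.28 CPM in hRescue (log2 fold change -1.33 ± 0.26, adjusted p 0.00342). ergic1 (gene25116, chromosome 3), a protein of the ER-Golgi intermediate compartment, had 22.2, 49.7 and 28.1 CPM in CoMo and 17.2, 16.5 and 20.2 CPM in hRescue (log2 fold change -1.09 ± 0.27, adjusted p 0.0109, or 0.0561 in the replicate block with numbers 1 and 3 only). zdhhc15 (gene24638, chromosome 8), a palmitoyltransferase, had 15.5, 22.7 and 15.2 CPM in CoMo and 8.60, 10.3 and 10.3 CPM in hRescue (log2 fold change -1.08 ± 0.24, adjusted p 0.00645). In all 3 genes the hRescue libraries were below the lowest CoMo library. In hPhf8, cmtr2 had 19.7, 5.90 and 19.4 CPM, ergic1 had 59.2, 44.5 and 56.9 CPM, and zdhhc15 had 29.4, 16.3 and 28.0 CPM. hPhf8 replicate 2 thus lay below every CoMo library for cmtr2 and within the CoMo range for ergic1 and zdhhc15.

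galc (gene1081, chromosome 8), the lysosomal galactosylceramidase, had 5.77, 9.35 and 5.72 CPM in CoMo, 15.5, 13.6 and 16.02 CPM in hPhf8, and 2.55, 3.95 and 4.18 CPM in hRescue. The groups were fully separated, with a log2 fold change of -1.17 ± 0.36 (adjusted p 0.0293). This call was lost in 7 alternatives, among them each of the fits without CoMo replicates 1, 2 or 3 (adjusted p 0.0507, 0.0679 and 0.0641).

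Among the IDs without a symbol, gene32987 and gene15834 rose most, by log2 fold changes of 2.60 ± 0.37 (SE, adjusted p 0.000678) and 1.99 ± 0.33 (adjusted p 0.00139). gene6832 and gene31955 fell by 2.25 and 1.44 on the log2 scale (adjusted p 0.00209 and 0.0148). The gene31955 call was lost without CoMo replicate 1 (adjusted p 0.0573) and in 1 fit over all 12 libraries (adjusted p 0.180). gene6832 is listed as LOC100145611 and is called slc26a4l in RefSeq, and it was also abundant. It had 471, 170 and 549 CPM in LacZ, 220, 323 and 141 CPM in CoMo, 1016, 240 and 826 CPM in hPhf8, and 52.9, 26.3 and 85.8 CPM in hRescue.

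The replicate order of gene6832 was shared with slc26a4, an anion exchanger of ionocytes that is not among the 150 genes. slc26a4 had 240, 300 and 201 CPM in CoMo, 436, 206 and 653 CPM in LacZ, 808, 293 and 758 CPM in hPhf8, and 54.1, 41.2 and 97.2 CPM in hRescue. In both genes replicate 2 was the lowest library within LacZ, hPhf8 and hRescue and the highest within CoMo. For the summed ionocyte markers replicate 2 was likewise the lowest in LacZ, with 2040, 1071 and 2953 CPM, and in hPhf8, with 3085, 1126 and 2931 CPM, and replicate 2 was also the highest for them in CoMo, with 1380, 1489 and 1245 CPM. The part of ionocyte content in gene6832 was not tested, and reads shared between near-identical copies could not be assigned with certainty.

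The genes with symbols were then read by known role, from groups formed after the names and values were seen, which were not tested as groups. Over all 88 genes with a symbol 26 were called higher and 8 lower, and over the 62 without a symbol 9 and 6. Over all genes tested 14.7% were called higher and 18.7% lower. Because genes that changed were more likely to have a name, the genes with symbols are not directly comparable with all genes tested. Proteins of mitochondria were the largest group, with 14 genes, of which 5 were called higher in hRescue, 1 lower and 8 not called. The genes called higher were mtfr1, a regulator of mitochondrial fission, nlrx1, a mitochondrial innate immune receptor, stoml2, a stomatin of the inner membrane, mrpl1, a ribosomal protein, and dhtkd1, an oxoacid dehydrogenase, and the gene called lower was pdp2. mtfr1 had 15.5, 28.8 and 17.1 CPM in CoMo, 29.6, 29.9 and 32.1 CPM in hPhf8, and 66.4, 79.7 and 69.0 CPM in hRescue, each group separated from the next. The log2 fold change of mtfr1 was 1.61 ± 0.22 (SE, adjusted p 0.000566), and those of the 14 genes ranged from -2.11 to 1.86 with a median of 0.59.

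stoml2 showed another order of groups. It had 10.02, 10.3 and 10.2 CPM in LacZ, 18.5, 19.2 and 14.1 CPM in CoMo, 18.9, 9.07 and 26.3 CPM in hPhf8, and 53.6, 49.8 and 44.5 CPM in hRescue. Its hPhf8 libraries overlapped CoMo while its hRescue libraries were above all others (log2 fold change 1.28 ± 0.19, adjusted p 0.000809). tfb1m, acaa2, a thiolase of fatty acid oxidation, and sco1, a copper chaperone of cytochrome c oxidase, had log2 fold changes of 0.86, 0.67 and 0.35 and were not called (adjusted p 0.0538, 0.0802 and 0.366), although tfb1m was called with the replicate block (adjusted p 0.0347).

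Regulators of transcription numbered 13, of which 5 were called higher (14.7% of all genes tested), none lower (18.7% of all genes tested) and 8 not called. Beside ints6, sertad1 and tbx1 these were arid4b, a chromatin protein of Sin3 deacetylase complexes, and mafk, a small Maf factor, with log2 fold changes of 1.23 and 0.96 (adjusted p 0.0110 and 0.0352). mafk had 3.65, 7.37 and 3.81 CPM in CoMo, 9.87, 4.54 and 9.69 CPM in hPhf8, and 11.8, 11.1 and 10.3 CPM in hRescue. hoxb3, a homeobox factor of the hindbrain, had 3.59, 12.8 and 4.67 CPM in CoMo and 7.93, 18.1 and 11.8 CPM in hRescue and was not called (log2 fold change 0.68, adjusted p 0.290, or 0.0462 with the replicate block). In hoxb3 replicate 2 was the highest library in CoMo, LacZ and hRescue.

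The 4 genes placed under cell death and protein turnover were called higher in hRescue, beside 14.7% of all genes tested. Because this group was formed after the values were seen, nothing is read from the share called in it. They were pidd1, bag4, rnf5, a ubiquitin ligase of the endoplasmic reticulum, and zfand2b, a proteasome-associated zinc finger protein, with log2 fold changes of 1.68, 0.93, 0.95 and 0.82. rnf5 had 26.9, 28.1 and 21.1 CPM in CoMo, 49.1, 19.5 and 48.2 CPM in hPhf8, and 45.8, 70.5 and 54.4 CPM in hRescue. It was among the kept genes, a class that uses hPhf8 replicates 1 and 3, while hPhf8 replicate 2 was below every CoMo library. trim9, a ubiquitin ligase known from neurons that had not been placed in this group, was called lower (log2 fold change -1.16 ± 0.33, adjusted p 0.0213). The 12 chaperone and stress genes called higher in hRescue are given beside this group, and their part in it was not tested.

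Lipid metabolism held 7 genes, with abhd4 and hmgcs1, the cytosolic HMG-CoA synthase of sterol synthesis, called higher and galc called lower. hmgcs1 had 7.72, 12.9 and 8.44 CPM in CoMo and 25.5, 19.0 and 21.3 CPM in hRescue (log2 fold change 0.96 ± 0.23, adjusted p 0.0106). hsd17b7, a later enzyme of sterol synthesis, had a log2 fold change of 0.88 and was not called (adjusted p 0.113). agpat1 and abhd16a, both acting on phospholipids, had log2 fold changes of -1.02 and -0.83 and were not called either (adjusted p 0.107 and 0.0634), although abhd16a was called lower with the replicate block (adjusted p 0.0491).

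The 8 genes of RNA modification, processing and translation gave 1 call in each direction, dhx35, a helicase of the spliceosome, at 1.71 and cmtr2 at -1.33. Membrane traffic, with 8 genes, gave 1 call, ergic1, and the 3 genes placed under muscle, mybpc3, myh6 and tmem38b, gave none. Of the 5 genes of mitosis and DNA replication, hmmr was called higher (0.66, adjusted p 0.0458) and primpol, a primase-polymerase, lower (-0.78, adjusted p 0.0361). spc25, nusap1 and tipin were not called, but nusap1 was lower with the replicate block (log2 fold change -0.57, adjusted p 0.0370).

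**Figure D5:**
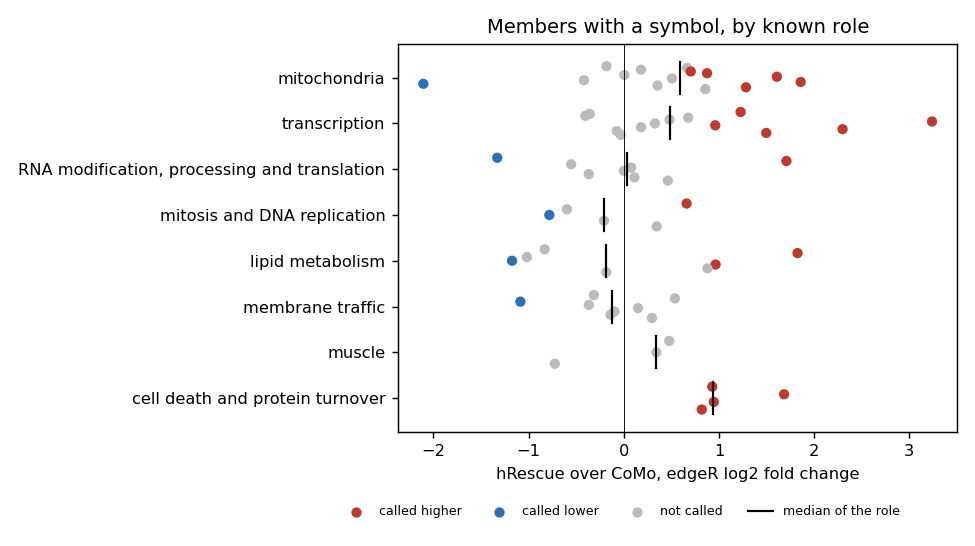
edgeR's log2 fold change of hRescue over CoMo (x axis) for 62 genes in 8 groups of known role, with genes called higher in red, called lower in blue and not called in grey, and the median of each group as a black line. The groups were formed after the values were seen. The 4 genes placed under cell death and protein turnover are red, while the 14 mitochondrial genes run from -2.11 to 1.86.

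Some of the genes lie close to each other. By gene order in UCB_Xtro_10.0, rnf5 and agpat1, nusap1 and ndufaf1, and atg9a and zfand2b were direct neighbours, and slc26a4l (gene6832) and entpd3 had 1 gene between them. entpd3 and gene6832, both at -2.25, moved together in hRescue, whereas rnf5 was called higher and agpat1 had a value of -1.02. Antisense counts were low for most of the genes, with a median of 1.04% of both strands, but exceeded 20% for 9 of them, with the highest share, 64.0%, in lppr3.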

How the data were processed

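Read counts per gene were analysed for 12 libraries from animal caps, 3 in each of the CoMo, LacZ, hPhf8 and hRescue groups, with groups and replicate numbers from the sample titles. According to the study's methods, rRNA was depleted with a kit from Illumina or from NEBNext, and the submitters' processing notes and the methods give alignment of the directional reads to the X. tropicalis v9.1 genome with STAR 2.7.1a, which also counted them. The authors deposited these raw counts without normalisation or pooling. The strand setting with the larger totals was taken as sense, and the entry that collects features without an ID was left out (16.6% to 60.9% of feature counts). hRescue was compared with CoMo with edgeR 4.0.16 in R 4.3.3 (quasi-likelihood test, two-sided, TMM, Benjamini-Hochberg adjustment over all genes tested), fitted on those 6 libraries without a covariate, after keeping genes with at least 1 read in 5 of 6 libraries. Alternatives were DESeq2 1.42.0, other scalings, filters, strand settings, rules, fits over more libraries, a replicate block and leaving out each library.

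The script was tested on simulated counts. The members and all gene lists were chosen with earlier results of these data known. The text names the 10 highest ranked genes with a symbol, up to 12 called in each direction without overlap, members of the lists, and IDs without a symbol for the 2 largest changes each way. Other genes, all role groups and the comparison of CoMo replicate 2 were chosen after their values were seen. Columns of the study's tables with its own fold changes and p-values were not used. Some results are not reported here.

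Same-numbered CoMo and hRescue libraries deviated together from their group means (correlation 0.22, 0.41 and 0.22 over 14444 genes). CoMo replicate 1 with hRescue replicate 3 gave 0.17, and the other unmatched pairs gave -0.38 to -0.07. The main test did not use the replicate numbers, which entered only the fits with a replicate block. Nothing in the sources used here says whether replicates were separate clutches, so p-values measure only the spread between these libraries. Intervals from counts cover counting error only.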

Additional observations from a re-analysis of the deposited data

Results flagged for a closer look

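Antisense counts, which entered no comparison, are given here for 2 of the 150 genes, chosen by their values. Other genes of the list also had every hRescue library above every CoMo and LacZ library. For example, tbc1d8 had 1.88, 2.26 and 1.52 in hRescue and at most 0.10 in these controls. For gene9509 the values were 16.8, 6.77 and 8.37 in hRescue and at most 3.95 in these controls. Per 1000000 sense counts over genes, parp10, a mono-ADP-ribosyltransferase, had 9.13, 7.52 and 3.61 antisense counts in hRescue (mean 6.76) and at most 0.29 in any CoMo or LacZ library. gene2438 had 7.79, 8.84 and 3.23 (mean 6.62) and at most 0.12. In both genes each hRescue library was above every control library, and the difference was not tested. The antisense share of all genes ran from 2.34% to 2.88% in these controls and from 3.84% to 4.15% in the hRescue libraries.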

How the results depend on the processing

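In the hRescue against CoMo test, the 49 calls among the 150 genes became 38 to 60 under the other scalings, filters, strand settings, DESeq2 and fits over more libraries, 35 to 63 when a library was left out and 20 to 93 when the rule kept 50 or 300 genes. Of the 49, 35 to 49 were called again in each of these fits and none changed sign. With the replicate block 58 were called, 41 higher and 17 lower, including all 49, and it changed no call of a gene named in the report other than those given there. The block with numbers 1 and 3 only, chosen after the data were seen, called 60. The median log2 fold change of 0.33 moved by more than its spread between hRescue libraries with library size alone (0.54), without CoMo replicate 2 (0.56) and with the block with numbers 1 and 3 only (0.68), and leaving out a library gave 0.19 to 0.56. Library size alone also moved the median of all genes from -0.02 to 0.21. When a library was left out, the genes with a rise numbered 99 to 146, the reversed 12 to 19, the kept 13 to 62, the extended 14 to 32 and the mixed 40 to 58, with the highest kept and extended counts without CoMo replicate 2 and the highest reversed count without hRescue replicate 1. For 31 named genes and 496 repeats, 460 kept their direction and side of the threshold, 14 lost a call, 17 gained one and 5 turned direction, none of them a called gene. These were elavl2 when a library was left out (-0.058 to 0.21, below 0 without CoMo replicate 3 or hRescue replicate 3), and slc27a4 with library size alone (0.026), without CoMo replicate 2 (0.10, beside -0.40 without hRescue replicate 1) and in the block with numbers 1 and 3 only (0.29). The causes were not tested. Changing the minimum of the rule to 1 or 10 CPM left 79 and 90 of the 150 genes, and TMM-scaled CPM left 106. The limits are the few libraries, the shallow hPhf8 replicate 2 with its high unmapped, multimapping and antisense shares, and the low counts of many of the genes.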
